A study of Mus musculus with 30 samples.

Results

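Molecular chaperones and heat shock proteins were measured in the kidney of young, old and calorie-restricted old mice as 79 probe sets of 60 genes, out of 13179 probe sets on the arrays. A probe set is a group of short oligonucleotides that reads a transcript. Members were chosen by gene symbol alone: the Hsp70 (Hspa), small heat shock (Hspb), Hsp60 and Hsp10 (Hspd, Hspe), Hsp110 (Hsph) and Hsp90 families, the J-domain proteins (Dnaj), the chaperonin CCT (Tcp1 and Cct2 to Cct8), protein disulfide isomerases (Pdia, P4hb), the lectin chaperones Calr and Canx, the FK506-binding proteins (Fkbp) and the cyclophilins (Ppi). Hspb1 was left out of the members. By the main site of the protein, 24 probe sets of 17 genes were placed with the endoplasmic reticulum (ER) and 7 of 7 genes with mitochondria. The other 48 probe sets of 36 genes are called cytosolic, although not all act there, since Dnajc13 acts on endosomes.

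The animals were C57BL/6 mice, an inbred strain. They formed 3 groups: young controls, fed the control diet and aged 5 months, old controls, fed the control diet and aged 30 months, and mice of 30 months kept on calorie restriction, a lowered food intake. Each group had 5 animals numbered 1 to 5 in the titles, and total RNA of each was read on 2 array types, whose values lie in a first and a second table. The labels do not say that the 5 numbers are separate mice. They are called animals here, and if they are not, the p-values measure technical spread. What the control diet held, and how far and from what age food was restricted, the sources used here do not say. The comparison of old with young controls addresses ageing, and that of restricted with old controls addresses the diet. Both use the same old controls, so their values are set side by side below and not correlated.

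Chaperones bind unfolded or partly folded proteins and prevent their aggregation. Hsp70 proteins work in cycles of ATP hydrolysis started by J-domain partners, Hsp90 proteins finish the folding of receptors and kinases, and CCT and Hsp60 with Hsp10 enclose a polypeptide in a barrel. In the ER, Hspa5 (BiP), calnexin, calreticulin and disulfide isomerases fold secreted and membrane proteins, and the unfolded protein response raises their transcripts when folding falls behind. The heat shock response, driven by heat shock factors, does the same for the cytosol, and kidney tubule cells rely on these systems for their transporters and their many mitochondria.

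The promoters of several members carry the elements through which these responses act. Those upstream of a start site in the genes described below are shown. Hspd1 and Hspe1 share theirs, and 5 ER genes have a match to the same element. RefSeq promoter windows of assembly GRCm38.p6 were searched, each running from 250 bases before to 50 after a start site. Of the 60 genes, 51 had a window, 61 windows in all. The heat shock element was searched on both strands as TTC, GAA and TTC with 2 free bases between the blocks, and occurred in 198 of 32851 windows of all genes, or 0.603%. It occurred in 4 member genes, Hspd1, Hspe1, Hsph1 and Dnajb6. The ER stress response element was searched on both strands as CCAAT and CCACG with 9 free bases between them, and occurred in 39 windows, or 0.119%, and in 5 member genes, Hspa5, Calr, Canx, Pdia6 and Dnajc3. A match is a description of the letters and does not show binding.

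Hspd1 and Hspe1 are divergent neighbours. The 215 bases between their start sites, chr1:55087933-55088147 on the plus strand, are given with 2 overlapping heat shock elements in capitals. For Dnajb6 the stretch is chr5:29735840-29735876 on the plus strand, with its heat shock element, on the opposite strand, in capitals.
Hspd1 and Hspe1: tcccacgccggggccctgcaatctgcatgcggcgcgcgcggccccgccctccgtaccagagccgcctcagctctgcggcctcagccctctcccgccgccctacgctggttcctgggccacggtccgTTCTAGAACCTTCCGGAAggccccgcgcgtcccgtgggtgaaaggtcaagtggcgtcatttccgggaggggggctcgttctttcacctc
Dnajb6: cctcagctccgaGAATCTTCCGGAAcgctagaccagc

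For the ER genes, 250 bases upstream of Hspa5 (chr2:34771840-34772089, plus strand) and 43 bases around the match for Canx (chr11:50325788-50325830, minus strand), Dnajc3 (chr14:118937815-118937857, plus strand) and Calr (chr8:84847063-84847105, minus strand) are given 5′ to 3′ along the gene. Capitals mark the ER stress response element, which in Calr lies on the opposite strand.
Hspa5: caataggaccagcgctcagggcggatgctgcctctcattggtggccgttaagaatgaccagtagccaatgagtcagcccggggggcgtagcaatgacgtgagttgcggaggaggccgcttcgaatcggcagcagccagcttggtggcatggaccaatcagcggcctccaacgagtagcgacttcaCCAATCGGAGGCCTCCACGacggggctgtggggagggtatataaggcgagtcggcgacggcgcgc
Canx: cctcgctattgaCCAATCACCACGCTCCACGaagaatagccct
Dnajc3: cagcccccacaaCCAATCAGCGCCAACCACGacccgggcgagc
Calr: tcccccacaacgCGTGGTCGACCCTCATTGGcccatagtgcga

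Intensity values were scaled to a common trimmed mean within each table. A background floor was set at 1103 in the first table, exceeded by 33.5% to 37.5% of an array's values, and at 1815 in the second, exceeded by 23.9% to 27.6%. No 2 arrays of a table were alike, with a highest r of 0.99 across probe sets. Kidney marker genes fixed for the check (Umod, Slc34a1, Kap, Slc12a1 and Aqp1) were above the floor on every array, and 0 of their 7 probe sets passed the test. Markers of other cell types moved with the groups. Of 7 tested probe sets of the plasma and B cell list, 5 rose with age and 5 fell with the diet. In both comparisons these 5 were of Igha, Jchain and Ighm, and Ms4a1 and Cd79b passed in neither. The summed intensity of that list ran from 27332 to 33849 in young controls, 106312 to 212536 in old controls and 29659 to 56028 in restricted mice. Cd79a and Sdc1 of that list were at the floor on all arrays. Of 8 macrophage probe sets, 6 rose with age and 4 fell with the diet, with summed intensities of 14090 to 22186, 38169 to 49721 and 17220 to 26116. Those that rose were of Ctss, Lyz2, Laptm5 and C1qb, and those that fell were of Ctss and C1qb. Cd68 and C1qc passed in neither comparison, and Csf1r and Adgre1 were at the floor on all arrays. Of 7 probe sets of fibroblast and smooth muscle genes, 2 rose with age (Tagln and Dcn) and 1 of 3 for Col1a1 rose with the diet. The summed intensities of that list were 13708 to 18277, 20385 to 33375 and 23786 to 36808, and Myh11 and Col1a2 were at the floor on all arrays. Of the lists for muscle, fat, blood and adrenal, 0 of 7 tested probe sets passed in either comparison. The part of these cells in the chaperone values was not tested. In total RNA of a whole organ, fewer cells of a type and less RNA per cell cannot be told apart.

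Of the 79 probe sets, 51 (43 genes) lay above the floor on at least 5 of the 15 arrays of their table and were tested: 30 cytosolic, 15 of the ER and 6 mitochondrial. On all 15 arrays 40 were above the floor, and on none 20. Genes with no tested probe set included the stress-inducible Hsp70 gene Hspa1a, whose highest value on any array was 287, its testis-enriched relatives Hspa1l and Hspa2, and the ER genes Pdia4, Pdia5, Pdia6, Dnajb9, Dnajc1 and Fkbp9. The remaining untested genes were Cct6b, Dnajb3, Dnajc17, Dnajc2, Hspa14, Hspa4l and Hspbp1 of the cytosol and Dnajc11 of mitochondria. Pdia6 was above the floor on 4 arrays, just short of the rule, and so were Fkbp9 and single probe sets of Dnajb6, Dnajc13 and Hspa4. Just inside the rule were Hspb2 and single probe sets of Dnajb1, Canx and Dnajc3, above the floor on 5 to 9 arrays. A value near or below the floor carries no order, and a change there is understated.

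No member probe set passed the test in either comparison. Hspb1, a small heat shock gene that was left out of the members, did pass with age and is described below with the related genes. With age, 0 of 51 had an adjusted p below 0.05 by limma with Benjamini-Hochberg adjustment, where 3.95% of 4433 probe sets did. With the diet, 0 of 51 passed, where 2.61% of 4518 did. At an unadjusted p under 0.05 in limma there were 3 with age, against 15.1% of all tested, and all 3 were lower in old controls (Hspb2, Dnajb6 and Dnajc15), against 8.73% of all tested. With the diet there were 4, against 14.6% of all tested. Fkbp5, Hspb8 and Dnajb1 were lower in restricted mice, where the background was 6.73%, and Hspa9 was higher, where it was 7.9%. Groups that did not overlap were found for 1 member with age, Dnajc15, lower in old controls (2.44% of all tested), and for 1 with the diet, Hspa9, higher in restricted mice (1.79%). Ordinary least squares without moderation also called 0 in both comparisons.

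The intervals bound what could have been missed only for tested probe sets read above the floor. The 28 untested ones have no interval, and where readings were raised to the floor the interval can be too narrow. For age, the 95% intervals of 49 of 51 probe sets lay within 1 log2 unit of no change. The lowest bound was -1.16, for Ppic, and the highest 1.01, for Ppid. For the diet 47 of 51 did, with a lowest bound of -1.25 for Ppid and a highest of 1.12 for Cct7. Standard errors ran from 0.117 to 0.409 with a median of 0.185. The median absolute log2 change of members was 0.146 with age and 0.138 with the diet, and over all tested probe sets it was 0.188 and 0.186. No member differed by more than 1 log2 unit in either comparison. Such changes were rare over all tested probe sets too, 91 of 4433 with age and 78 of 4518 with the diet. Their absence among 51 members does not set the members apart.

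**Figure D1:**
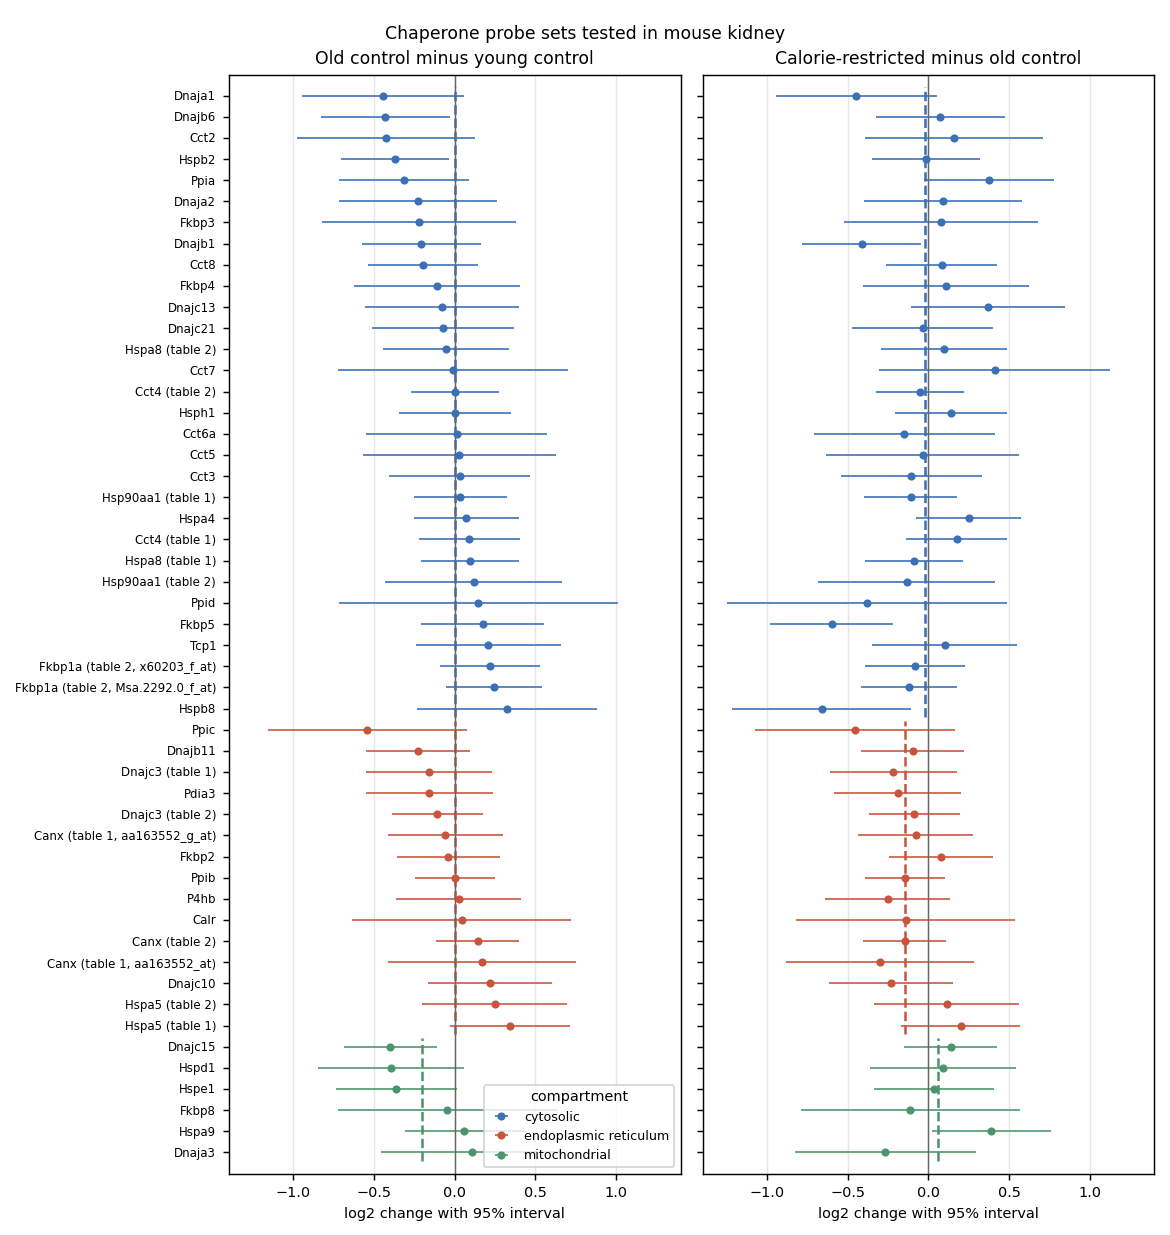
Log2 change of the 51 tested chaperone probe sets with 95% intervals from limma (horizontal axis, log2 units), old minus young controls on the left and restricted minus old controls on the right. Dashed lines are compartment medians, which lie at 0.00, 0.00 and -0.20 for age and at -0.02, -0.14 and 0.06 for the diet (cytosol, ER, mitochondria).

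All compartment medians lay between -0.20 and 0.06. The median log2 change with age was 0.00 for cytosolic members (16 above 0 and 14 below), 0.00 for ER members (8 and 7) and -0.20 for mitochondrial members (2 and 4), and it was -0.04 over all tested probe sets, 44.6% of which were above 0. With the diet the medians were -0.02 for the cytosol (14 above 0 and 16 below), -0.14 for the ER (3 and 12) and 0.06 for mitochondria (4 and 2). Over all tested probe sets the diet median was 0.03, with 45.1% below 0. These medians describe the members and carry no test.

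Animals spread widely around these medians. Taking each animal's median difference from the old control mean, mitochondrial members lay between 0.09 and 0.34 in young controls, between -0.08 and 0.20 in old controls and between -0.08 and 0.20 in restricted mice. Young and old controls overlapped there, as 1 young animal (0.09) lay below 2 of the old ones. ER members lay between -0.13 and 0.05 in young controls, -0.11 and 0.24 in old controls and -0.15 and -0.05 in restricted mice. Cytosolic members lay between -0.10 and 0.17, between -0.12 and 0.21 and between -0.18 and 0.04. In the ER and the cytosol the restricted mice overlapped the old controls.

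**Figure D2:**
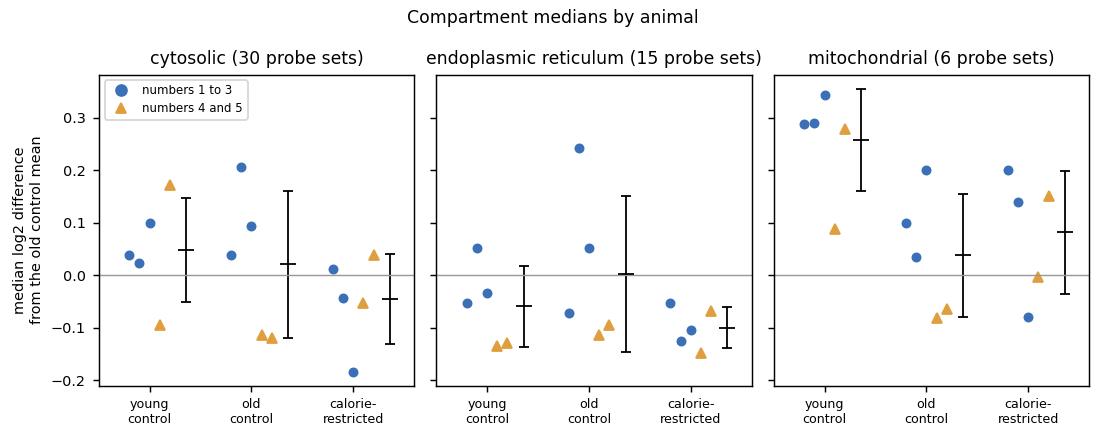
Median log2 difference from the old control mean in each animal (vertical axis, log2 units), over the tested cytosolic, ER and mitochondrial probe sets. Circles are animals numbered 1 to 3, triangles those numbered 4 and 5, and the bars are group means with SD (n = 5); mitochondrial medians of young controls lie between 0.09 and 0.34 and overlap those of old controls.

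A mitochondrial member, Dnajc15, held the lowest adjusted p with age. Dnajc15, a J-domain protein of the inner membrane that serves the protein import motor, had scaled intensities of 3038, 2972, 3822, 3339 and 3606 in young controls 1 to 5. The old controls read 2870.0, 1941, 2810.2, 2715 and 2457 and the restricted mice 2836, 2713, 2468, 2697 and 3284. Every old control lay below every young control, while restricted mice overlapped both. The log2 difference was -0.40 ± 0.14 (SE) with age, with a limma adjusted p of 0.124, and 0.14 ± 0.14 with the diet (adjusted p = 0.689). Across 28 alternatives the age difference stayed between -0.46 and -0.30 with limma adjusted p of 0.075 to 0.355.

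Hspd1 (Hsp60) and Hspe1 (Hsp10) form the folding chamber of the mitochondrial matrix and share the promoter printed above. Hspd1 read 37183, 49103, 39824, 28830.2 and 31627 in young controls, 39645, 31898, 34756, 19322 and 20065 in old controls and 32914, 37388, 25653, 25008 and 29243 in restricted mice. Hspe1 read 3419.7, 3468, 3287, 3012 and 4666 in young controls, 2291, 2189, 3519, 3111 and 2859 in old controls and 3593, 2969, 2095, 2573 and 3071 in restricted mice. In both genes the group mean was lower in old than in young controls, and the groups overlapped. The log2 difference with age was -0.39 ± 0.21 (SE) for Hspd1 (limma adjusted p = 0.396) and -0.36 ± 0.18 for Hspe1 (adjusted p = 0.327). With the diet it was 0.09 ± 0.21 and 0.03 ± 0.18. Hspd1 stood on the second array and Hspe1 on the first, so these are separate hybridisations of the same RNA. The difference of Hspd1 was -0.24 among animals 1 to 3 and -0.62 among animals 4 and 5.

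Hspa9 (mortalin), the matrix Hsp70 that pulls precursors in and feeds them to Hsp60, had a higher mean in restricted mice than in old controls. It read 8270.1, 6940.3, 7492, 7558 and 7881 in restricted mice against 5894, 5884, 6380.1, 5481 and 5482 in old controls, so that every restricted animal lay above every old control. Young controls spread from 3359 to 7550.5 and overlapped both. The log2 difference with the diet was 0.39 ± 0.17 (SE), with a limma adjusted p of 0.31 that ranged from 0.081 to 0.886 over 28 alternatives, and with age it was 0.06 ± 0.17. Its direction with the diet was the same in animals 1 to 3 (0.32) and in animals 4 and 5 (0.49).

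The other mitochondrial members did not separate the groups. Dnaja3 (Tid1), the J-domain partner of Hspa9, differed by 0.11 ± 0.26 (SE) with age and -0.27 ± 0.26 with the diet. Fkbp8, an FK506-binding protein of the outer membrane, differed by -0.05 ± 0.32 and -0.11 ± 0.32. Fkbp8 was above the floor on 11 of 15 arrays, and all 4 readings under the floor were of animals 4 or 5. The mitochondrial median with age rested on few probe sets: it was -0.36 over the 5 probe sets above the floor on every array, which leave out Fkbp8, -0.05 when the untested Dnajc11 was added, and -0.09 without old control 4.

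**Figure D3:**
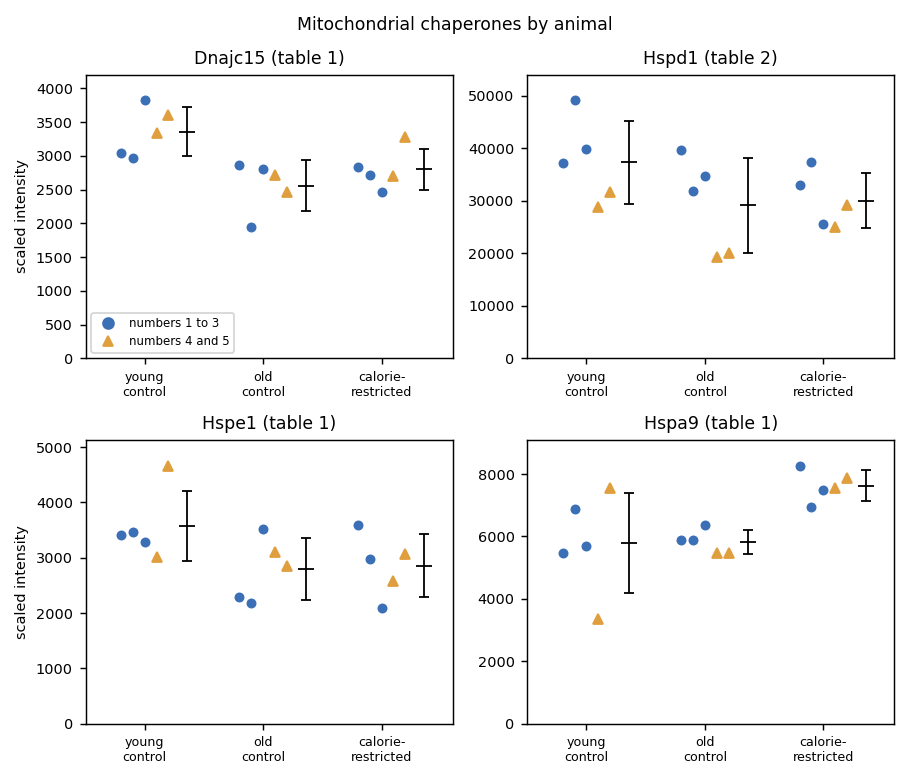
Scaled intensity (vertical axis, array units) of 4 mitochondrial chaperones in each animal, circles for numbers 1 to 3 and triangles for numbers 4 and 5, with group means and SD (n = 5). All old controls lie below all young controls for Dnajc15, and all restricted mice lie above all old controls for Hspa9.

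In the ER, the Hsp70 chaperone Hspa5 (BiP), the sentinel that releases the stress sensors of the ER when unfolded protein accumulates, was read on both array types. On the first it read 4449.7, 4333, 3370.1, 2804 and 4047 in young controls, 4379, 6447, 5039, 3842 and 4450.3 in old controls and 6480.1, 4804, 4462, 5266 and 6624 in restricted mice. On the second it read 5263, 7280.5, 5897, 4921 and 6517 in young controls, 7294, 11423, 7643, 5153 and 5203 in old controls and 7932, 6562, 5910.3, 8106 and 10146 in restricted mice. Its mean was highest in restricted mice on both arrays, and the old controls overlapped both other groups. The difference with age was 0.34 ± 0.17 (SE) and 0.25 ± 0.21 on the log2 scale, with limma adjusted p of 0.349 and 0.635, and with the diet 0.20 ± 0.17 and 0.11 ± 0.21 (0.637 and 0.853). On the second array the sign with the diet turned with the animals, from -0.35 in numbers 1 to 3 to 0.81 in numbers 4 and 5, and with age from 0.50 to -0.13.

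Calreticulin (Calr) and calnexin (Canx) hold glycoproteins in the ER until they are folded. Calr read 18397, 15862, 9946, 8871 and 8185 in young controls, 19050.0, 18405, 15025, 6223 and 7489 in old controls and 11529.6, 10972, 14975, 9490.5 and 8409 in restricted mice. In all 3 groups animals 4 and 5 were the lowest, and this spread within groups exceeded the differences between them, 0.04 ± 0.32 (SE) with age and -0.14 ± 0.32 with the diet. The age difference of Calr was 0.29 among animals 1 to 3 and -0.32 among animals 4 and 5, and the diet difference was -0.49 and 0.39. The other probe set of Calr was above the floor on 0 arrays and was not tested. Canx was read by 3 probe sets, with log2 differences of 0.17 ± 0.28, -0.06 ± 0.17 and 0.14 ± 0.12 (SE) with age and -0.30 ± 0.28, -0.08 ± 0.17 and -0.15 ± 0.12 with the diet. The 3 probe sets of Canx thus differed in sign with age and had the same sign with the diet.

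Disulfide isomerases form and rearrange disulfide bonds. P4hb (PDI) read 5006, 5373, 5129, 5884 and 5996 in young controls, 5006, 6579.7, 5066, 5476 and 5800.2 in old controls and 3460.5, 3194, 5211, 6413 and 5981 in restricted mice, where 2 animals lay below all others. Its difference was 0.02 ± 0.18 (SE) with age and -0.25 ± 0.18 with the diet (limma adjusted p = 0.562). Pdia3 (ERp57), which works with calnexin and calreticulin, differed by -0.16 ± 0.18 and -0.19 ± 0.18. The intensities of Pdia3 ran from 3263 to 5035 in young controls, 2615 to 4650.0 in old controls and 2629.9 to 3978 in restricted mice. Pdia4, an isomerase of the Hspa5 complex, was above the floor on 0 arrays.

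Among ER prolyl isomerases, Ppib (cyclophilin B), needed for collagen folding, had the lowest SE of the members. Its mean was 10246 ± 892 (SD, n = 5) in young controls, 10258 ± 1021 in old controls and 9277 ± 812 in restricted mice, and its differences were 0.00 ± 0.12 (SE) and -0.14 ± 0.12. Fkbp2 differed by -0.04 ± 0.15 with age and 0.08 ± 0.15 with the diet. Ppic (cyclophilin C), which is abundant in kidney, held the largest ER difference in both comparisons. Ppic read 4242, 4108, 4027, 1993 and 2341 in young controls, 2956, 1843, 3033, 1825 and 1659.9 in old controls and 2256, 2603, 1147, 1053 and 1392 in restricted mice. Its mean was lowest in the restricted mice and highest in the young controls, the groups overlapped, and the differences were -0.54 ± 0.29 (SE; limma adjusted p = 0.387) and -0.45 ± 0.29 (adjusted p = 0.504).

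ER J-domain proteins stimulate Hspa5. Dnajb11 differed by -0.23 ± 0.15 (SE) with age and -0.10 ± 0.15 with the diet, and Dnajc10, a disulfide reductase used in ER-associated degradation, by 0.22 ± 0.18 and -0.23 ± 0.18. Dnajc3, the P58IPK inhibitor of eIF2alpha kinases, differed by -0.16 ± 0.19 and -0.11 ± 0.13 with age on the first and second array, and by -0.22 ± 0.19 and -0.09 ± 0.13 with the diet. Fkbp2 and the 2 probe sets of Hspa5 were the only ER probe sets above 0 with the diet, and none of the 15 passed. The 12 below 0 were not tested as a group, and in animals 4 and 5 alone the ER median with the diet was 0.02.

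**Figure D4:**
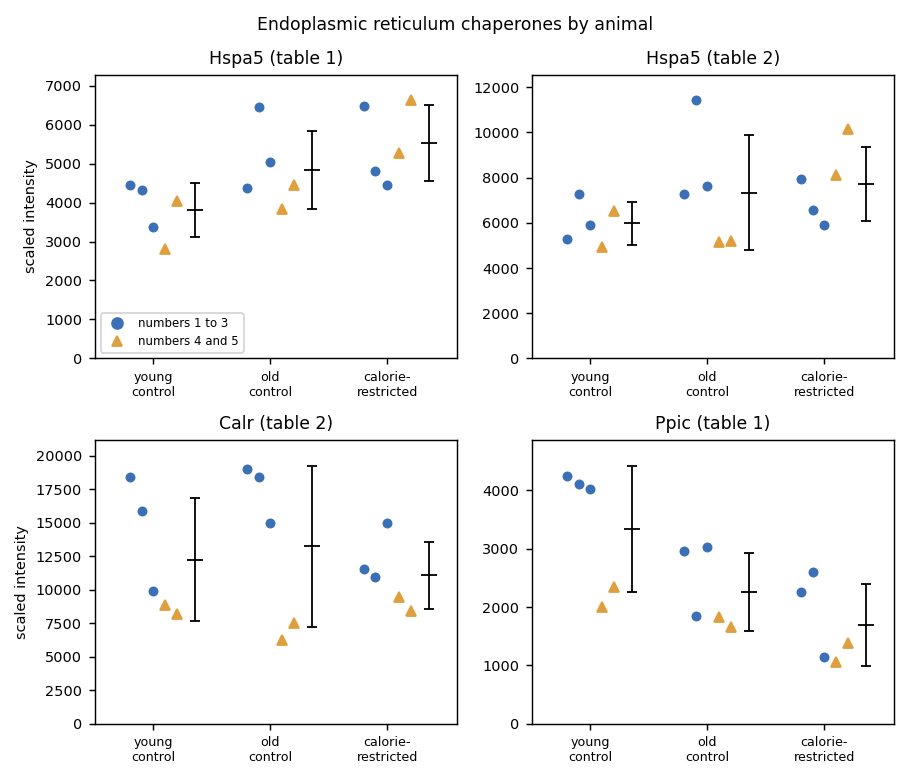
Scaled intensity (vertical axis, array units) in each animal for Hspa5 on both array types, Calr and Ppic, circles for numbers 1 to 3 and triangles for numbers 4 and 5, with group means and SD (n = 5). For Calr the triangles are the lowest 2 points of every group, and old controls overlap both other groups in the 4 panels.

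In the cytosol, the lowest adjusted p with the diet belonged to Fkbp5 (FKBP51), an Hsp90 co-chaperone whose gene is induced by glucocorticoids and which dampens the glucocorticoid receptor. Fkbp5 read 5386, 4342, 5338, 3834 and 3907 in young controls, 3910.3, 5859, 6598, 4598 and 4914 in old controls and 3433, 2684, 4764, 3214 and 3035 in restricted mice. Of the restricted mice 4 lay below every old control, and animal 3 lay inside the old range. The difference with the diet was -0.60 ± 0.18 (SE) on the log2 scale, with a limma adjusted p of 0.101, and with age 0.17 ± 0.18 (adjusted p = 0.712). Fkbp5 passed the threshold without restricted animal 3 (-0.72, limma adjusted p = 0.0363) and with the sets of numbers 1 to 3 and 4 to 5 as a term in the fit (adjusted p = 0.0466). Over all 28 alternatives the difference stayed between -0.72 and -0.51, and it was -0.59 among animals 1 to 3 and -0.61 among animals 4 and 5.

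Small heat shock proteins hold denatured proteins without ATP. Hspb8, which works with Bag3 in selective autophagy, read 5550.4, 5077, 5646, 3133 and 5180.3 in young controls, 5907, 10546, 6574, 5366 and 3619 in old controls and 2979, 5351, 5008, 3494 and 2869 in restricted mice. The highest reading was of old control 2, and the groups overlapped. Its differences were 0.32 ± 0.26 (SE) with age and -0.66 ± 0.26 with the diet (limma adjusted p = 0.246), which is the largest log2 difference of any tested member in either comparison. Hspb2, a muscle-enriched small heat shock protein, was near the floor and differed by -0.37 ± 0.16 with age (adjusted p = 0.245 in limma) and -0.01 ± 0.16 with the diet.

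Cytosolic J-domain proteins deliver substrates to Hsp70. Dnaja1 read 6936, 9574, 8254, 6191 and 9434 in young controls, 7353, 8139, 7289, 3782 and 4145 in old controls and 4579.6, 5150.3, 2919, 3867 and 5474 in restricted mice. The mean was highest in young controls and lowest in restricted mice, with differences that did not pass the test, -0.45 ± 0.24 (SE; limma adjusted p = 0.382) and -0.45 ± 0.24 (adjusted p = 0.413). The animals carried the difference unevenly, since with age Dnaja1 differed by -0.11 in numbers 1 to 3 and by -0.95 in numbers 4 and 5, and with the diet by -0.89 and 0.22. Dnajb1 (Hsp40), a classical heat-inducible gene, read 1714, 333, 1826, 2053 and 2022 in young controls, 1612, 1385, 1893, 717 and 1502 in old controls and 1026, 731, 1046, 1124 and 599 in restricted mice. Its difference with the diet was -0.41 ± 0.17 (SE; limma adjusted p = 0.273), and only 1 of the 5 restricted readings (1124) lay above the floor of 1103. A second probe set of Dnajb1 was above the floor on 2 arrays and was not tested. Dnajb6, which suppresses polyglutamine aggregation, differed by -0.43 ± 0.19 with age (adjusted p = 0.257 in limma) and 0.07 ± 0.19 with the diet.

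**Figure D5:**
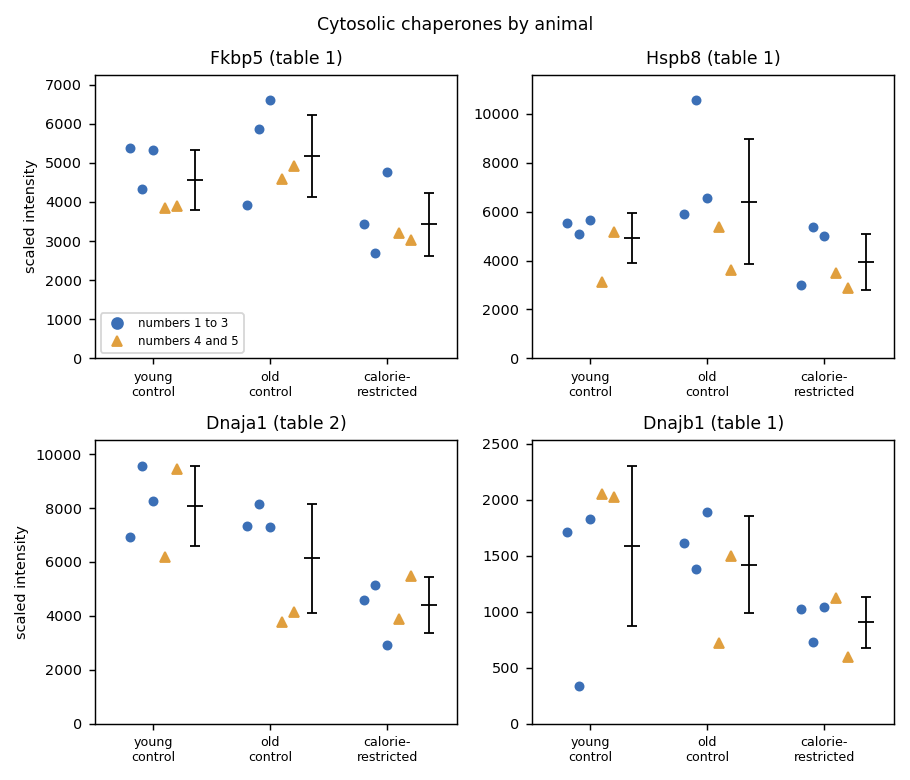
Scaled intensity (vertical axis, array units) of 4 cytosolic chaperones in each animal, circles for numbers 1 to 3 and triangles for numbers 4 and 5, with group means and SD (n = 5). For Fkbp5, 4 restricted mice lie below all old controls and 1 lies among them, and in the other panels old controls overlap both other groups.

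The cytosolic Hsp70 and Hsp90 members that were tested did not pass in either comparison. Hspa1a was not tested, and Hsp90ab1 had no probe set among the members, so cytosolic Hsp90 was read through Hsp90aa1 alone. Hspa8 (Hsc70) read 51439 ± 7589.9 (SD, n = 5) in young controls, 55182 ± 9036 in old controls and 51456 ± 4478 in restricted mice on the first array. Its differences were 0.10 ± 0.14 (SE) and -0.05 ± 0.18 with age on the first and second array, and -0.09 ± 0.14 and 0.10 ± 0.18 with the diet. Hsp90aa1, the inducible cytosolic Hsp90, differed by 0.04 ± 0.14 and 0.12 ± 0.26 with age and -0.11 ± 0.14 and -0.14 ± 0.26 with the diet. Hspa4 and Hsph1, the Hsp110 nucleotide exchange factors, differed by 0.07 ± 0.15 and 0.00 ± 0.16 with age and by 0.25 ± 0.15 and 0.14 ± 0.16 with the diet.

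CCT folds actin and tubulin in a ring of 8 different subunits, all of which were represented by a tested probe set. With age the subunits differed by 0.21 (Tcp1), -0.43 (Cct2), 0.03 (Cct3), 0.09 and 0.00 (Cct4), 0.03 (Cct5), 0.01 (Cct6a), -0.01 (Cct7) and -0.20 (Cct8). With the diet the same log2 differences were 0.10, 0.16, -0.11, 0.17 and -0.05, -0.03, -0.15, 0.41 and 0.08. The values for this obligate complex thus had no common sign in either comparison. Their SEs ran from 0.13 (Cct4 on the second array) to 0.34 (Cct7). Signs of differences this small cannot show whether the subunits moved together or apart. Cct2 held the largest age difference with an SE of 0.26, and old control 3 (3464) lay far below the other old controls, which read up to 10705.

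Of the cytosolic prolyl isomerases, Ppia (cyclophilin A), the target of ciclosporin, read 43341, 52854, 57792, 61538 and 53459.5 in young controls, 42279.7, 33892, 43754, 57147 and 40837 in old controls and 44208, 65380.0, 38034, 69188 and 70289 in restricted mice. Its differences were -0.31 ± 0.19 (SE; limma adjusted p = 0.457) with age and 0.37 ± 0.19 (adjusted p = 0.388) with the diet, and all groups overlapped. Fkbp1a (FKBP12), the target of tacrolimus and rapamycin, was read by 2 probe sets of the second array, which differed by 0.22 ± 0.15 and 0.25 ± 0.14 with age and by -0.08 ± 0.15 and -0.12 ± 0.14 with the diet. Fkbp4 (FKBP52), the Hsp90 co-chaperone that opposes Fkbp5 at the glucocorticoid receptor, differed by -0.11 ± 0.24 and 0.11 ± 0.24. Ppid (cyclophilin 40) had the largest SE of the members, 0.41, and differed by -0.38 with the diet, with 8629 in restricted animal 3 against 1684 to 2690.1 in the other restricted mice.

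The remaining cytosolic members were Dnaja2, Dnajc13, Dnajc21 and Fkbp3. Dnaja2 differed by -0.23 ± 0.23 (SE) with age and 0.09 ± 0.23 with the diet, and Fkbp3 by -0.22 ± 0.28 and 0.08 ± 0.28. Dnajc13, which acts on endosomes, differed by -0.08 ± 0.23 and 0.37 ± 0.23, and Dnajc21, a ribosome maturation factor, by -0.07 ± 0.21 and -0.04 ± 0.21.

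Title numbers divided the animals within groups. Animals 4 and 5 were the lowest 2 in all 3 groups for 4 of 51 members (Calr, Dnaja2, Dnajc21 and Fkbp8), or 7.84%, against 4.78% of all tested probe sets. They were the highest 2 in all groups for 1 member, Dnajc13 (1.96%), against 6.31%. The labels do not record what the numbers stand for.

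Genes of the same systems outside the member rule were read from a fixed list of 52 proteostasis genes, of which 28 were annotated and 20 (25 probe sets) tested. With age 1 of 25 probe sets passed, where 3.95% of all tested did. It was Hspb1 (Hsp27), which was higher by 1.07 ± 0.21 log2 units (SE; limma adjusted p = 0.00414), with all old controls (3626 to 4745) above all young controls (1139 to 2639). Restricted mice lay between 2281 and 3408, and the diet difference of -0.48 ± 0.21 did not pass (adjusted p = 0.305). With the diet 0 of 25 passed in limma, where 2.61% of all tested did. The list medians were 0.03 with age and 0.13 with the diet. Clpp, a matrix protease, differed by -0.62 ± 0.18 with age (adjusted p = 0.059 in limma), and its old readings reached only 1534, near the floor. Atf6, an ER stress sensor, differed by -0.51 ± 0.23 with the diet, and 1 of the 2 probe sets of the co-chaperone Bag6 by 0.48 ± 0.23 with age. The heat shock factor Hsf2 and the stress-induced Ddit3 and Hyou1 were at the floor on all arrays.

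Several probe sets can read more than their own gene. The suffix f in the array naming marks probe sets shared within a sequence family, and it applies to Hspa5, Hspa8, Hspe1, Ppia, Ppid, Fkbp1a, Cct3, both probe sets of Cct4 and Hsp90aa1 on the second array. Processed copies of Ppia, Hspa8 and Hspe1 are common in the mouse genome, so these levels are uncertain. Of 6 genes tested on both array types (Canx, Cct4, Dnajc3, Hsp90aa1, Hspa5 and Hspa8), the values are given above for each array. In the second table, young values of targets with several probe sets of suffix i, f, s or r had changed order against old values in 25 of 26 pairs, against 0 of 27 between restricted and old controls. No chaperone probe set belonged to that class. The order of the other young rows of that table could not be checked in the same way, which touches all age values of the second table, among them Hspd1, Calr, Dnaja1, P4hb, Ppia, Fkbp4 and most CCT subunits.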

How the data were processed

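Kidney total RNA of 15 animals, as numbered in the titles, was read on 2 array types (30 samples). The authors deposited intensity values, whole numbers per probe set. Negative values made up 20.6% to 26.6% of each first-type array and 29.2% to 35.9% of each second-type array. Software and background correction: not given in the sources used here. Groups and numbers were taken from the titles.

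Arrays of a table were brought to 1 trimmed mean, with 2% of values cut at either end (factors 0.997 to 1.01). The root mean square of a table's negative values (1103 and 1815) served as a floor, to which lower values were raised before log2 was taken. Probe sets above this floor on at least 5 arrays were tested, 2609 and 1909. Controls (110 probe sets) were dropped, as were 77 rows blank on arrays of young controls. Annotation gave 7561 probe sets 1 symbol, 7544 of them updated by gene number with RefSeq (GRCm38.p6, names only), and 224 several. Of the last, 1 matched the member rule and was left out. Hsp90b1, Hspa1b, Hsp90ab1 and Ppif were among the fixed names and are not analysed here.

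In R 4.3.3, limma 3.58.1 fitted all 3 groups (lmFit, contrasts, eBayes), and p-values were adjusted by Benjamini-Hochberg over 4518 probe sets, with a threshold of 0.05. The age background leaves out 85 probe sets of the second table whose young values may be exchanged between rows, which leaves 4433. The number of arrays limits the precision. Deviations of same-numbered old and young animals from their group means correlated at 0.215 to 0.489, with 5 of 5 pairs above 0.1. Values for differently numbered animals are not given, so this alone does not show pairing. The age values in the Results come from the fit without pairing. With the replicate number as a block, 0 of 51 members passed with age in limma, where 218 of 4433 probe sets did. The labels state no pairing. Same-numbered restricted and old animals correlated at -0.0149 to 0.402, with 4 of 5 above 0.1, and are not treated as paired.

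Members, lists, compartments and tests were chosen with earlier results of these data known. Named were any member past the threshold, the 3 largest changes per compartment and comparison, and fixed members, and of the related list those past the threshold and up to 4 others. Other members were named to account for all. The fit was tested on simulated data with known changes of at least 1 log2 unit, larger than that of any member. Values were drawn independently for each animal. The simulation therefore does not cover changes of the members' size or spread shared between animals. Alternatives were quantile normalization, no scaling, asinh values, a floor 2 times or 0.5 times as high, other filters, robust moderation with a trend or none, fits of 2 groups, a replicate block, the number sets, the first table alone, 1 probe set per gene and leaving out each animal. Figures were drawn with matplotlib 3.10.9.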

Additional observations from a re-analysis of the deposited data

Results flagged for a closer look

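In 8 of 153 groups of 5 animals, the 51 tested chaperone probe sets in 3 groups each, 1 animal stood apart from the other 4 by Dixon's criterion, which chance alone reaches in about 1 in 20 groups. Young control 4 was the lowest for Fkbp4 (a scaled intensity of 6485.2) and for Hspb8 (3133.4). Young control 5 was the highest for Hspe1 (4666.4) and for the g probe set of Canx (11024.3), and young control 3 for Dnajb11 (2382.2). Restricted animal 4 was the highest for 1 of the 2 probe sets of Fkbp1a (8159.8), and restricted animal 3 for Ppid (8629.1). Young control 2 was the lowest for Dnajb1, but its 333.3 lies under the floor of 1103, so the gap was not measured. With that reading raised to the floor the ratio of the gap to the range was 0.643, below the critical value of 0.71.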

How the results depend on the processing

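The count of chaperone probe sets called with age was 0 in all 28 alternatives, leaving out each animal included. With the diet it was 0 in 25 of 28 and 1 in 3, in each case Fkbp5: with the replicate block (count 1, -0.60, limma adjusted p = 0.0461), with the number set as a term (count 1, adjusted p = 0.0466) and without restricted animal 3. Leaving out animals gave a range of 0 to 1 for the diet. The replicate block changed no other call. The mitochondrial median with age was -0.045 without a filter on dim probe sets (7 probe sets), and -0.36 both over probe sets above the floor on all arrays of at least 1 group and over those above it on every array (5 probe sets). Numbers 4 and 5 alone moved the cytosolic median to -0.18 with age and 0.15 with the diet, the ER median with the diet to 0.016 and the mitochondrial median with the diet to 0.17. The cause was not tested. With 1 animal left out, the medians with age ran from -0.10 to 0.03 (cytosol), -0.04 to 0.02 (ER) and -0.30 to -0.089 (mitochondria, the last without old control 4), and with the diet from -0.06 to 0.07, -0.18 to -0.08 and 0.00 to 0.14. Of the single-member values under alternatives, 2587 kept their sign and their side of the threshold, 162 had the other sign with neither value called, and 3 passed the threshold where the reported value did not. Readings near the floor limit most Dnajb1, Hspb2, Fkbp8 and 1 probe set each of Canx and Dnajc3. They also touch Cct5, Cct6a, Cct8, Ppic, the tested probe set of Cct3 and Hsp90aa1 on the second array. These were above the floor on 12 to 14 of 15 arrays.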
